A study of Homo sapiens with 30 samples.

Results

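The genes described here encode the linkers that join integrins to the actin cytoskeleton. They are the talins TLN1 and TLN2, the tensins TNS1, TNS2 and TNS3, the PINCH proteins LIMS1 and LIMS2, integrin-linked kinase (ILK), and the parvins PARVA and PARVB. The 10 genes were chosen by symbol, and each symbol matched 1 Ensembl gene ID among the 33538 genes of the count table. All 10 passed the filter on low counts, as did 16713 genes in all.

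RNA came from 3 lines of Ewing sarcoma, a tumour of bone and soft tissue: A673, CHLA10 and TC32, all labelled EWS::FLI1 for their fusion oncogene. They were given BMS-986158 at 5 nM, which blocks the bromodomains by which BET proteins bind acetylated chromatin, or the solvent DMSO as vehicle. Both agents were given for 3 days in the 3 lines, and BMS-986158 for 20 days without interruption in CHLA10 and A673 (persister cells in the labels), where a 20-day vehicle group was also sequenced. Each of the 10 groups had 3 libraries of poly(A) RNA, 30 in all. The labels do not say how long the 20-day vehicle cells had received DMSO, nor whether each replicate was its own culture. The p-values therefore rest on the spread of these libraries alone, and that spread may be technical. A673 and TC32 were grown in RPMI1640 with 10% serum and CHLA10 in IMDM with 20% serum and a supplement. In comparisons with CHLA10, line and medium therefore cannot be told apart. In bulk RNA, fewer cells with a transcript and less transcript per cell cannot be told apart either.

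Talin is the protein that binds integrin tails and switches integrins on, and it ties them to actin directly and through vinculin. Tensins bind the same tails at a later stage and carry actin-binding and phosphotyrosine-binding domains. PINCH, ILK and parvin form a heterotrimer, in which ILK is the central pseudokinase, PINCH holds one end through its LIM domains and parvin binds actin at the other. Each family has paralogs that compete for the same place, so the level of one paralog is read here beside that of the other.

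Total counts ran from 16083677 to 48949739 per library. Levels are in CPM, counts per 1000000 of a library's TMM-scaled total. All 9 Ewing sarcoma markers examined, CD99 and NR0B1 among them, had counts in each of the 10 groups, with a summed level of 2220 to 7410 CPM, although NKX2-2 averaged only 0.289 to 1.70 CPM in the 4 CHLA10 groups. A list of 15 markers of blood, endothelial, epithelial, muscle and stromal cells summed to 17.8 to 276 CPM. Within their groups 4 libraries stood farthest from the others: replicate 3 of treated A673 at 20 days, of A673 vehicle at 3 days, and of treated and vehicle CHLA10 at 20 days. The treated A673 library also had 3.58% mitochondrial counts against 2.19 and 2.03% in its 2 companions, and the A673 vehicle library had 2.00% against 5.31 and 5.53%. The 20-day A673 vehicle libraries had 1.68, 2.96 and 2.32%. In TNS1, TLN1 and TNS2 that 3-day vehicle library, at 158, 431 and 15.5 CPM, also lay near the 20-day vehicle ranges. These were 152 to 167, 422 to 429 and 13.8 to 18.8 CPM. Whether it belongs with the 20-day libraries was not tested. Values without the libraries that stood apart are given beside the calls they ended and the values they moved by over 1.5 times, and for some others.

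Promoter stretches of TLN2 and LIMS2 are shown because these genes carry the main contrast: TLN2 was higher in each treatment comparison, while LIMS2 was lower in 4 and higher in 1. Each is the 250 bases before the outermost start of the gene among its RefSeq entries (GRCh38.p14), read 5′ to 3′ on the strand of the gene, with every CpG dinucleotide in capitals. The TLN2 stretch is chr15:62390300-62390549 on the plus strand, and the LIMS2 stretch is chr2:127681787-127682036 on the minus strand.
TLN2: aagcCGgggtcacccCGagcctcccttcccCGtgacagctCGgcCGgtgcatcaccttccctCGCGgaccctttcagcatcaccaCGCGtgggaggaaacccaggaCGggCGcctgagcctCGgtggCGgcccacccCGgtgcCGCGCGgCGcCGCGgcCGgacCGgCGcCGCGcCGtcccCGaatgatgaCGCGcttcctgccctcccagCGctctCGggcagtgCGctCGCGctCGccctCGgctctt
LIMS2: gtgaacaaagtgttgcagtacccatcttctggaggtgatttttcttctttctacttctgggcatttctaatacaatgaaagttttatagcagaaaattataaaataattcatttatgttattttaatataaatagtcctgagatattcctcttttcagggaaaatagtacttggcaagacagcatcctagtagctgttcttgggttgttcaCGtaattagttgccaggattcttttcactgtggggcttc
The TLN2 stretch held 36 CpG dinucleotides and the LIMS2 stretch 1. With the 50 bases after the start included, the 300-base windows held 45 and 4, against a median of 14 over 35116 such promoter windows, and 96.5% and 24.5% of those windows held fewer. TLN2 has this 1 entry. LIMS2 has 4 entries holding 4 to 26 CpG dinucleotides, and the counts do not tell which start the cells used.

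Between 5 and 8 of the 10 genes changed under BMS-986158 in each comparison, against 29.8% to 45.1% of all tested genes. In CHLA10 at 3 days 1 of the 10 was higher and 7 were lower than in vehicle, where 14.0% of all tested genes were higher and 15.7% lower, 29.8% in all. In A673 at 3 days 1 was higher and 5 were lower, against 15.3% and 18.4% of all genes (33.7%). In TC32 2 were higher and 5 lower, against 22.3% and 22.8% (45.1%). At 20 days CHLA10 again had 1 higher and 7 lower, against 16.5% and 17.2% (33.7%), while A673 had 3 higher and 2 lower, against 19.7% and 19.9% (39.7%). A gene is called higher or lower at an adjusted p under 0.05 in edgeR's quasi-likelihood test with Benjamini-Hochberg adjustment over the 16713 genes, and adjusted p-values are from this test unless another tool is named. The median log2 change of the 10 genes was -0.64, -0.18 and -0.22 at 3 days in CHLA10, A673 and TC32, and -0.78 and 0.07 at 20 days in CHLA10 and A673. Without ILK, whose counts are not a usable measure, it was -0.64, -0.31, -0.53, -0.85 and 0.05 in the same order. Over all tested genes the median lay between -0.02 and 0 in the 5 comparisons.

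**Figure D1:**
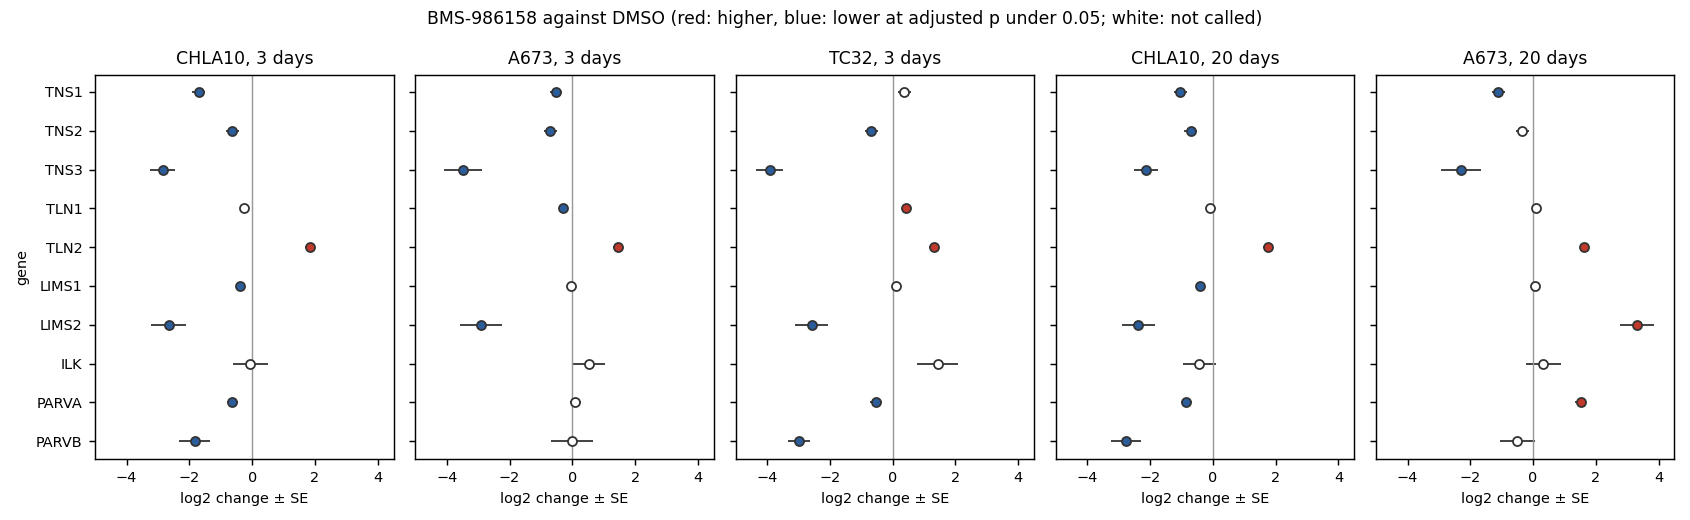
Log2 change of each linker gene under BMS-986158 against DMSO, with its standard error, in the 5 treatment comparisons (3 libraries a group). Red points were higher and blue points lower at an adjusted p under 0.05, and white points were not called. TLN2 lies to the right of 0 and TNS3 to the left in all 5 panels, and LIMS2 and PARVA lie far to the right only in A673 at 20 days.

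RNA of TLN2, the talin prominent in heart, muscle and brain, rose in each line and at each time. In CHLA10 at 3 days TLN2 (ENSG00000171914, chr15:62390526-62844631, plus strand, GRCh38) stood at 18.8, 17.7 and 17.3 CPM under DMSO and at 66.4, 68.5 and 56.3 CPM under BMS-986158. In A673 at 3 days it stood at 20.0, 16.8 and 29.4 CPM under DMSO and at 59.8, 58.6 and 62.8 CPM under the drug. In TC32 it stood at 19.6, 27.0 and 24.7 CPM and rose to 48.4, 64.8 and 65.2 CPM. No treated library of these lines overlapped its vehicle group. At 20 days CHLA10 went from 25.7, 26.1 and 21.2 CPM to 72.4, 92.3 and 82.6 CPM, and A673 from 27.3, 26.5 and 25 CPM to 86.0, 71.8 and 86.9 CPM. Here too the groups stayed clear of each other, with the lowest treated library at 71.8 CPM and the highest vehicle library at 27.3 CPM.

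The log2 change of TLN2 was 1.83 ± 0.16 (SE) in CHLA10, 1.45 ± 0.16 in A673 and 1.32 ± 0.16 in TC32 at 3 days, or 3.56-fold, 2.73-fold and 2.50-fold. At 20 days it was 1.76 ± 0.16 in CHLA10 and 1.63 ± 0.15 in A673, and the adjusted p over the 5 comparisons ran from 1.73e-09 to 1.53e-07. Of all tested genes 469, or 2.81%, were higher in all 5. None of the 6 differences between these effects was called for TLN2. The difference between TC32 and CHLA10 at 3 days was -0.51 ± 0.22, with a 95% interval of -0.94 to -0.08 and an adjusted p of 0.12. Between 20 and 3 days the difference was -0.07 (95% interval -0.50 to 0.35) in CHLA10 and 0.19 (-0.24 to 0.61) in A673.

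TLN1 (ENSG00000137076, chr9:35696948-35732395, minus strand), the talin of most cells, moved much less and in no common direction. In TC32 it was higher, with 264, 307 and 275 CPM under DMSO and 320, 410 and 390 CPM under the drug, a log2 change of 0.41 ± 0.10 (adjusted p = 0.00231). In A673 at 3 days it was lower, with 334, 320 and 431 CPM under DMSO and 275, 300 and 301 CPM under the drug (-0.31 ± 0.10, adjusted p = 0.0231). The vehicle library at 431 CPM is the one that stood apart, and without it the A673 change was -0.16 with an adjusted p of 0.23. The call was also lost without treated replicate 1 or 2 (adjusted p = 0.0998 and 0.0636), and in a fit of only the groups compared (0.0728). In CHLA10 at 3 days the treated libraries at 353, 362 and 346 CPM all lay under the vehicle libraries at 431, 419 and 427 CPM, but the change of -0.27 ± 0.10 missed the threshold (adjusted p = 0.0508). The same change was called lower in 10 of 11 other settings, with adjusted p from 0.000662 to 0.0469 (0.0302 with the replicate number as a block), and not without the filter on low counts. At 20 days the groups overlapped in both lines, with log2 changes of -0.10 ± 0.10 in CHLA10 and 0.08 ± 0.10 in A673. The response of TC32 differed from that of CHLA10 by 0.68 ± 0.15 (adjusted p = 0.00318) and from that of A673 by 0.71 ± 0.15 (adjusted p = 0.000955).

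Per kilobase of exon, TLN1 remained the main talin RNA. TLN2 made up 2.55 ± 0.085% of talin RNA (SD, n = 3) in CHLA10 vehicle at 3 days and 10.1 ± 0.756% under the drug. In A673 the share went from 3.61 ± 0.455% to 11.4 ± 0.557%, and in TC32 from 4.96 ± 0.479% to 8.98 ± 0.417%. At 20 days it went from 3.43 ± 0.549% to 11.4 ± 1.15% in CHLA10 and from 3.70 ± 0.155% to 10.2 ± 1.41% in A673. In each of the 5 comparisons the 3 treated shares lay above the 3 vehicle shares. The shares were not tested.

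**Figure D2:**
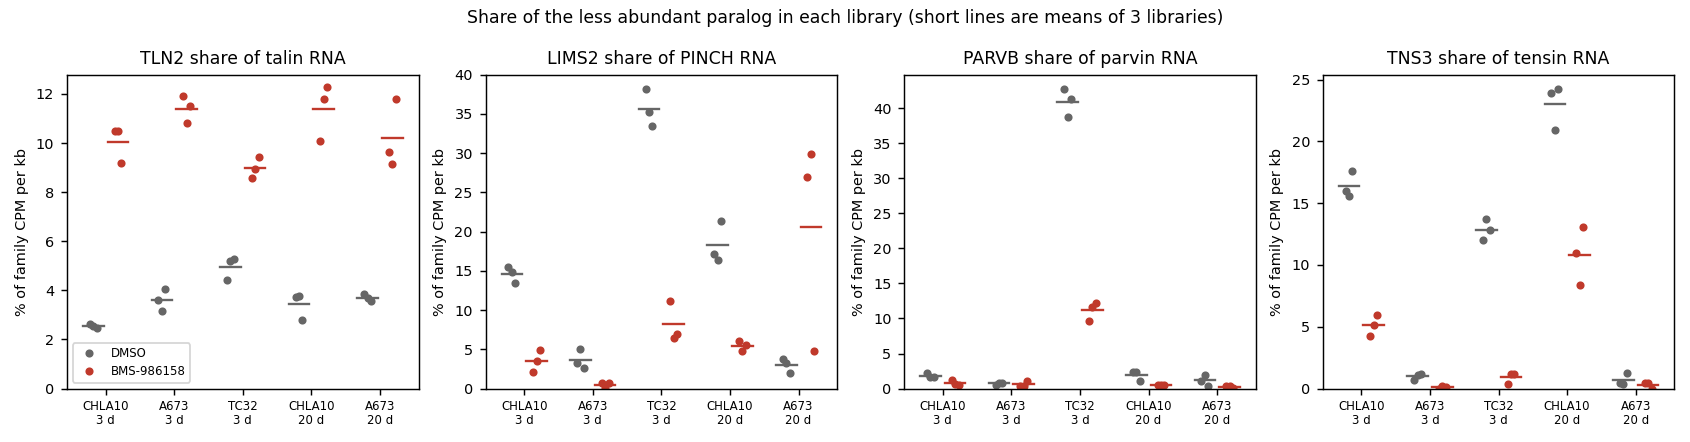
Share of TLN2 in talin RNA, LIMS2 in PINCH RNA, PARVB in parvin RNA and TNS3 in tensin RNA in each library, in percent of the family's summed CPM per kilobase of exon. Grey points are DMSO, red points BMS-986158, and short lines means of 3 libraries. The treated TLN2 share lies near 10% in every line, the PARVB share is large only in TC32 vehicle, and the LIMS2 share is higher with the drug only in A673 at 20 days.

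All 3 tensins were lower under BMS-986158 in CHLA10 and in A673 at 3 days, and TNS3 was lower in every comparison. TNS3 (ENSG00000136205, chr7:47275154-47582558, minus strand), a tensin of focal and fibrillar adhesions, had the steepest fall. In CHLA10 at 3 days it went from 12.5, 12.6 and 13.5 CPM to 1.43, 1.74 and 2.17 CPM, and in TC32 from 11.7, 13.7 and 11.7 CPM to 0.247, 1.13 and 1.07 CPM. In CHLA10 at 20 days it went from 24.5, 19.7 and 21.9 CPM to 6.22, 3.62 and 5.22 CPM. Treated and vehicle libraries were far apart in these 3 comparisons. A673 had little TNS3 RNA to begin with: 0.766, 1.37 and 1.58 CPM in vehicle at 3 days and 0.645, 0.514 and 1.79 CPM at 20 days. Its treated libraries held 0 to 5 counts at 3 days and 0 to 6 counts at 20 days, again with no overlap.

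The log2 change of TNS3 was -2.85 ± 0.40 in CHLA10, -3.48 ± 0.61 in A673 and -3.92 ± 0.44 in TC32 at 3 days, and -2.13 ± 0.37 in CHLA10 and -2.30 ± 0.64 in A673 at 20 days. The largest of the 5 adjusted p-values was 0.00486, and 518 of all tested genes (3.10%) were lower in all 5. The A673 call at 20 days was lost in a fit of only the groups compared (-2.33, adjusted p = 0.0724). It also rests on vehicle replicate 3, without which the change was -1.60 (adjusted p = 0.0604). Without treated replicate 3 it was -1.69 and without treated replicate 1 -2.96, both still called. None of the 6 differences between the TNS3 effects was called. Their 95% intervals were wide, for example -0.31 to 1.75 for 20 against 3 days in CHLA10.

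TNS1 (ENSG00000079308, chr2:217799588-218033982, minus strand), the founding tensin of fibrillar adhesions, responded differently in each line at 3 days. CHLA10 fell from 40.0, 39.5 and 35.4 CPM to 10.1, 10.2 and 14.9 CPM, and A673 from 104, 103 and 158 CPM to 79.5, 80.5 and 92.7 CPM. In TC32 the vehicle libraries stood at 63.0, 65.3 and 57.8 CPM and the treated ones at 61.9, 90.1 and 88.2 CPM. The groups did not overlap in CHLA10 and A673 and overlapped in TC32, where 1 treated library lay within the vehicle range. The log2 change was -1.71 ± 0.21 in CHLA10 (adjusted p = 9.56e-07), -0.53 ± 0.19 in A673 (0.0389) and 0.37 ± 0.20 in TC32 (0.132). The A673 call at 3 days was lost in 4 of the 6 fits that left out 1 library. One of these left out vehicle replicate 3, the library at 158 CPM (-0.29, adjusted p = 0.276). The others left out treated replicate 1, 2 or 3 (adjusted p = 0.114, 0.119 and 0.0504). It was also lost without the filter on low counts (0.101).

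These TNS1 responses were tested against each other. A673 exceeded CHLA10 by 1.18 ± 0.28 (adjusted p = 0.0085), TC32 exceeded CHLA10 by 2.07 ± 0.29 (6.45e-05) and TC32 exceeded A673 by 0.89 ± 0.28 (0.0198). The last of these was lost in 4 of 12 fits that left out 1 library, with an adjusted p of 0.0754 without A673 vehicle replicate 3. At 20 days TNS1 fell in both lines tested. CHLA10 went from 40.5, 37.1 and 41.1 CPM to 17.1, 16.9 and 23.6 CPM, and A673 from 167, 159 and 152 CPM to 63.2, 54.4 and 104 CPM. The treated library at 104 CPM is the one that stood apart, yet it still lay under each vehicle library. The changes were -1.04 ± 0.20 in CHLA10 (adjusted p = 0.000267) and -1.11 ± 0.20 in A673 (6.52e-05), and without that library the A673 change was -1.44.

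TNS2 (ENSG00000111077, chr12:53046969-53064372, plus strand), a tensin prominent in kidney podocytes, was modestly lower in 4 comparisons. Its log2 change was -0.64 ± 0.21 in CHLA10, -0.70 ± 0.21 in A673 and -0.68 ± 0.21 in TC32 at 3 days, and -0.71 ± 0.21 in CHLA10 at 20 days, with adjusted p between 0.00931 and 0.0216. In CHLA10 at 3 days the libraries went from 25.1, 27.1 and 25.6 CPM to 16.9, 17.1 and 16.1 CPM without overlap. In A673 at 3 days the vehicle libraries ran from 15.5 to 31.8 CPM and overlapped the treated range of 14 to 16.1 CPM. In A673 at 20 days the change was -0.34 ± 0.21 (adjusted p = 0.211). Leaving out 1 library ended each of the 4 calls for at least 1 choice of library, with adjusted p up to 0.127. A fit of only the groups compared ended the calls in A673 at 3 days (adjusted p = 0.0507) and CHLA10 at 20 days (0.0831). In CHLA10 at 20 days the call ended without treated replicate 3, which stood apart (-0.46, adjusted p = 0.0849), and in A673 at 3 days the change was -0.94 (0.000458) without vehicle replicate 3. TNS2 shares exon bases with SPRYD3 and with the antisense gene AC068888.1 on the opposite strand, 0.7% and 4.5% of its exon length.

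The balance of the tensins, given without a test, was not alike in the lines. Under DMSO at 3 days TNS3 made up 16.4 ± 1.06% of tensin RNA per kilobase in CHLA10, 12.8 ± 0.85% in TC32 and 0.983 ± 0.264% in A673. Under the drug the shares were 5.12 ± 0.83%, 0.92 ± 0.468% and 0.119 ± 0.122%. TNS1 was the main tensin RNA in A673, at 70.0 ± 11.3% in vehicle and 73.6 ± 2.45% in treated cells at 3 days. In CHLA10 TNS2 held the largest share, 48.2 ± 1.13% in vehicle and 70.5 ± 5.26% under the drug.

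**Figure D3:**
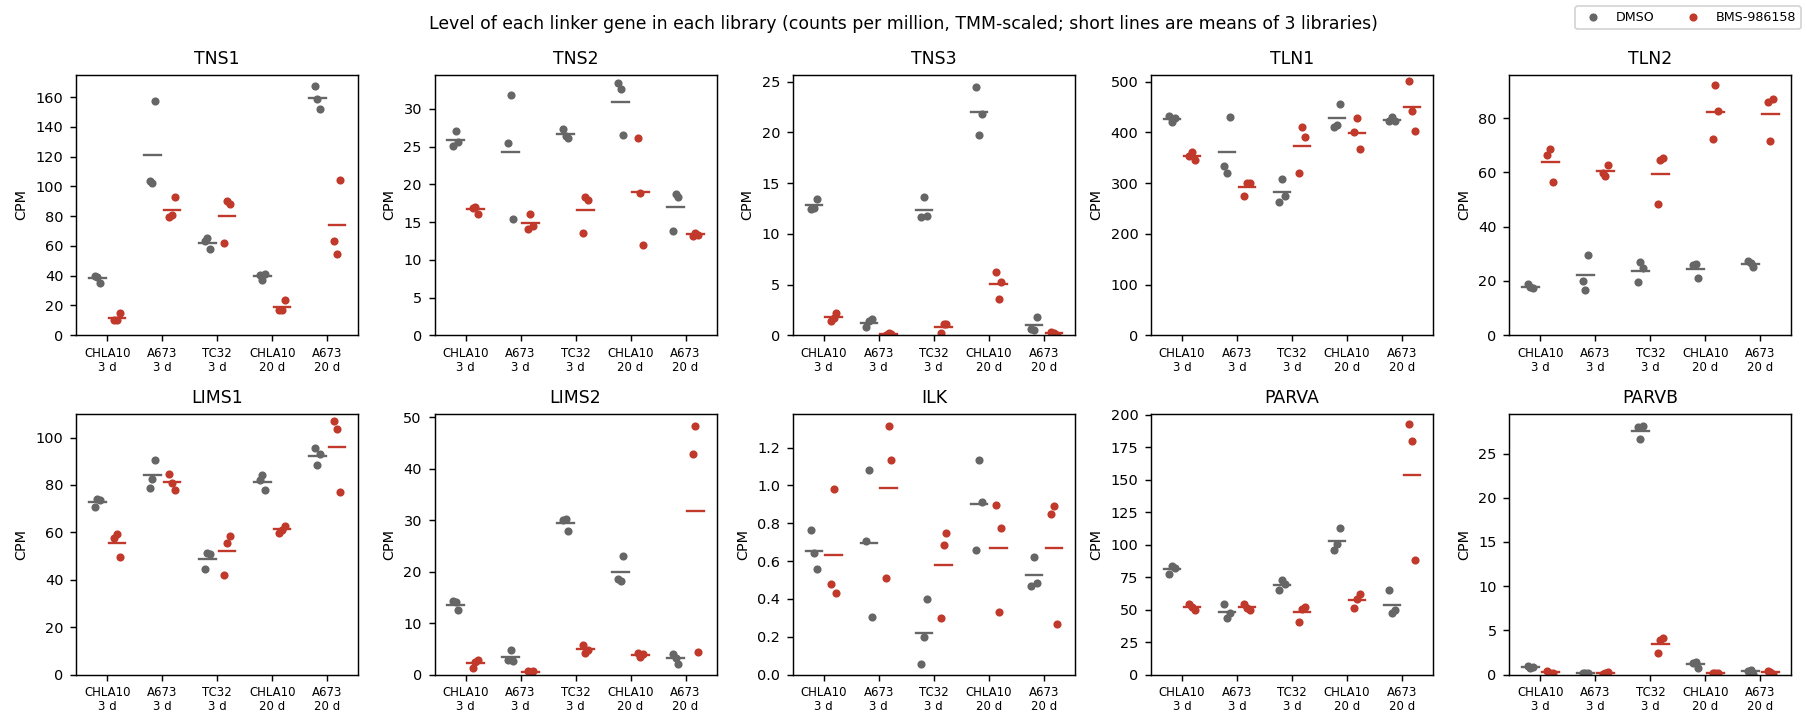
Level of the 10 linker genes in each of the 30 libraries, in TMM-scaled CPM on a linear axis that starts at 0 and differs between panels. Grey points are DMSO, red points BMS-986158, and short lines means of 3 libraries. In A673 at 20 days 2 treated libraries reach 42.9 and 48.2 CPM of LIMS2 while the remaining one, at 4.28 CPM, lies just above the vehicle libraries.

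The PINCH paralog LIMS2 was lower under the drug in 4 comparisons and higher in A673 at 20 days. LIMS2 (ENSG00000072163, chr2:127638381-127681786, minus strand) encodes PINCH2, which binds ILK as PINCH1 of LIMS1 does. At 3 days CHLA10 went from 14.2, 14.2 and 12.4 CPM to 1.35, 2.36 and 2.77 CPM, and TC32 from 30, 30.3 and 27.8 CPM to 5.78, 4.17 and 4.80 CPM. A673, which had less of it, went from 2.89, 4.74 and 2.60 CPM to 0.682, 0.0398 and 0.607 CPM, or 1 to 30 counts per treated library. None of these groups overlapped. The log2 changes were -2.66 ± 0.55 (adjusted p = 0.000734), -2.58 ± 0.52 (0.000327) and -2.90 ± 0.67 (0.00172), and in A673 limma-voom gave -3.40 with an adjusted p of 0.068.

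At 20 days CHLA10 again fell, from 18.6, 18.1 and 23.0 CPM to 4.16, 3.36 and 4.04 CPM (-2.37 ± 0.52, adjusted p = 0.00112). A673 went from 4.08, 3.3 and 2.08 CPM to 42.9, 48.2 and 4.28 CPM. The treated library at 4.28 CPM is the one that stood apart from its group, and it exceeded the highest vehicle library by little. The change was 3.32 ± 0.54, or 9.96-fold (adjusted p = 3.13e-05), and it ran from 2.89 to 3.83 as each library was left out, staying called each time. The effect at 20 days exceeded that at 3 days in A673 by 6.22 ± 0.85 (adjusted p = 0.000148) and that of CHLA10 at 20 days by 5.68 ± 0.75 (8.44e-06). Without the library that stood apart the difference between the A673 times was 6.73. In CHLA10 the effects at 20 and 3 days differed by 0.29 ± 0.73 (adjusted p = 0.874).

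LIMS1 (ENSG00000169756, chr2:108534355-108687246, plus strand), the PINCH of most tissues, was called only in CHLA10, where it was lower by little. At 3 days it went from 70.8, 74.0 and 73.7 CPM to 57.8, 59.1 and 49.7 CPM, and at 20 days from 82.1, 84.2 and 77.9 CPM to 59.6, 61.2 and 62.9 CPM. The groups did not overlap, and the changes were -0.39 ± 0.11 (adjusted p = 0.00825) and -0.41 ± 0.11 (0.00478). Without treated replicate 3 the change at 3 days had an adjusted p of 0.0573. In A673 and TC32 no change was called and the groups overlapped, with log2 changes between -0.05 and 0.09. The near-identical copies LIMS3 and LIMS4 were at 0 in every library, so reads shared with them could not be seen.

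The difference between lines was itself tested for LIMS1. TC32 exceeded CHLA10 at 3 days by 0.48 ± 0.16 (adjusted p = 0.0409) and A673 exceeded CHLA10 at 20 days by 0.47 ± 0.16 (0.0314). Both calls were lost when single libraries were left out, with adjusted p up to 0.143 and 0.107.

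Per kilobase, LIMS2 was 35.6 ± 2.37% of PINCH RNA in TC32 vehicle and 8.22 ± 2.6% under the drug. In CHLA10 it went from 14.6 ± 1.08% to 3.49 ± 1.39% at 3 days and from 18.3 ± 2.63% to 5.45 ± 0.616% at 20 days. In A673 it was 3.60 ± 1.26% in vehicle and 0.495 ± 0.39% in treated cells at 3 days. At 20 days the A673 share was 3.03 ± 0.909% in vehicle and between 4.84 and 29.9% in the 3 treated libraries.

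ILK itself (ENSG00000166333, chr11:6603708-6610874, plus strand) could not be measured in these counts. Its 30 libraries held 1 to 56 counts, with a median of 13, and treated and vehicle groups overlapped in all 5 comparisons. No change was called: the log2 values ran from -0.43 to 1.43, and TC32 at 3 days had the smallest adjusted p (0.0781), which fell to 0.0351 without vehicle replicate 3 and 0.0409 without treated replicate 1. Of the 3484 exon bases of ILK 2374, or 68.14%, also lie in exons of TAF10, a subunit of the TFIID complex, on the opposite strand. TAF10 had a median of 1771.5 counts. The strand setting of the counting is not given in the sources used here, and how the authors' counting treated reads in the shared bases cannot be told from the table.

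**Figure D4:**
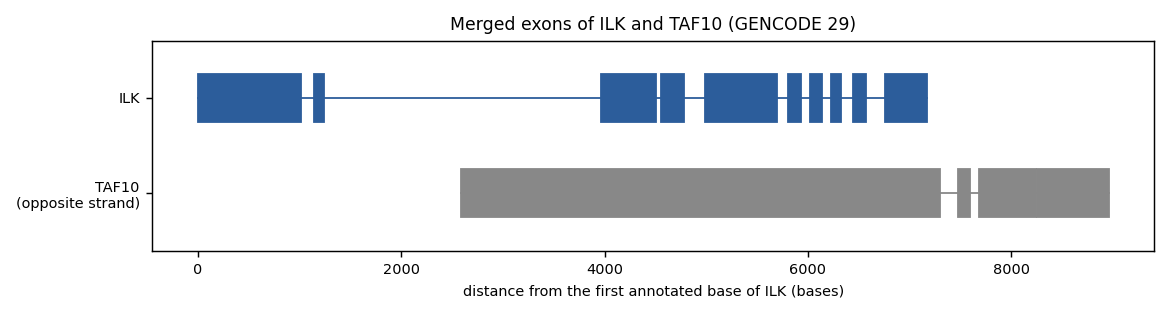
Exons of ILK (blue) and TAF10 (grey, opposite strand), merged over the transcripts of each gene in GENCODE 29, against the distance in bases from the first annotated base of ILK. The long TAF10 exon covers most ILK exons and leaves the first ILK exons free.

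The parvins, which link the complex to actin, were both lower in CHLA10 and TC32, while in A673 PARVA was higher at 20 days and no other parvin change was called. PARVA (ENSG00000197702, chr11:12377185-12535356, plus strand), the broadly expressed alpha-parvin, fell in CHLA10 from 77.0, 83.7 and 81.9 CPM to 54.7, 51.7 and 49.6 CPM at 3 days and from 96.1, 100 and 113 CPM to 51.0, 58.1 and 62.2 CPM at 20 days. In TC32 it fell from 65.2, 72.9 and 69.4 CPM to 40.5, 50.8 and 52.1 CPM. The groups did not overlap in these comparisons. The log2 changes were -0.64 ± 0.18 (adjusted p = 0.00709), -0.85 ± 0.18 (0.00045) and -0.53 ± 0.18 (0.0154). The TC32 call was lost in 2 of the 6 fits that left out 1 library, with adjusted p up to 0.0869.

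In A673 PARVA was called only at 20 days. At 3 days the libraries stood at 54.1, 43.8 and 47.7 CPM under DMSO and 54.2, 51.4 and 49.9 CPM under the drug, and no change was called (0.09 ± 0.18). At 20 days they stood at 65.1, 47.1 and 49.5 CPM under DMSO and 193, 180 and 87.8 CPM under the drug. All 3 treated libraries lay above the vehicle range, the one that stood apart being the lowest, as for LIMS2. The change was 1.51 ± 0.18, or 2.85-fold (adjusted p = 1.84e-07), and 1.79 without that library. The A673 effect at 20 days exceeded that at 3 days by 1.42 ± 0.25 (adjusted p = 0.000857) and that of CHLA10 at 20 days by 2.36 ± 0.25 (1.93e-07).

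PARVB (ENSG00000188677, chr22:43999211-44172949, plus strand), the beta-parvin, was abundant only in TC32. There it fell from 28.0, 26.7 and 28.1 CPM to 2.47, 3.88 and 4.16 CPM, a log2 change of -2.98 ± 0.34 or 7.87-fold (adjusted p = 9.79e-08). In CHLA10 it fell from 0.997, 0.790 and 0.813 CPM to 0.397, 0.178 and 0.130 CPM at 3 days (-1.83 ± 0.49, adjusted p = 0.00501) and from 1.36, 1.42 and 0.740 CPM to 0.156, 0.185 and 0.163 CPM at 20 days (-2.77 ± 0.49, 6.16e-05). None of these groups overlapped. The CHLA10 calls rest on few counts per library, 16 to 17 in vehicle and 3 to 10 in treated libraries at 3 days. At 20 days they were 13 to 30 and 4 to 5. Without treated replicate 1 the CHLA10 change at 3 days was -2.44 for PARVB. In A673 PARVB was under 0.6 CPM in each library, the groups overlapped, and the changes were -0.01 ± 0.67 at 3 days and -0.50 ± 0.55 at 20 days. The TC32 response differed from that of A673 by -2.97 ± 0.67 (adjusted p = 0.00211), and without treated A673 replicate 3 by -2.19 (adjusted p = 0.1). At 20 days A673 differed from CHLA10 by 2.28 ± 0.76 (adjusted p = 0.0319), a call lost in 7 of 12 fits that left out 1 library.

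In TC32 PARVB was 40.9 ± 1.98% of parvin RNA per kilobase in vehicle and 11.2 ± 1.39% under the drug, and the summed level of the family went from 9.11 ± 0.223 to 4.19 ± 0.619 CPM per kilobase. In A673 at 20 days the summed level went from 4.24 ± 0.762 to 12 ± 4.51 CPM per kilobase, nearly all of it PARVA.

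The 2 genes that turned upward in A673 at 20 days, LIMS2 and PARVA, were joined by other measured shifts in those libraries. The list of 15 markers of other cell types summed to 152 to 276 CPM in the treated libraries and 109 to 114 CPM in vehicle. PDGFRB, a receptor of mesenchymal cells, made up most of this sum, at 212 ± 61.7 CPM against 105 ± 3.24 CPM. In the treated group 6 of the 15 were at 0: PTPRC and CD3E of blood cells, CDH5 of endothelium, KRT5 of epithelium, and DCN and LUM of fibroblasts. In the vehicle group 3 of the 15 were at 0, LUM among them, and the vehicle libraries together held only 11 counts of DCN and 57 of CDH5. Among the 10 markers tested 2 were higher (PDGFRB and DES) and 4 lower, against 19.7% and 19.9% of all genes, so the higher count lies near that share. In the 4 other comparisons none was higher and 4 or 5 were lower, against 14.0 to 22.3% of all genes higher and 15.7 to 22.8% lower. The list medians there were -1.47 and -1.65 in CHLA10 at 3 and 20 days, -2.42 in A673 and -2.29 in TC32. Setting genes with 0 treated counts to a bound, where vehicle counts allowed one, moved the A673 median to -2.0 at 3 days and from -1.46 to -1.0 at 20 days. In these 4 comparisons the marker falls stood beside those of LIMS2 and TNS3, and their part in the latter was not tested. In CHLA10 at 3 days the sum was 61.6 to 64.7 CPM in vehicle and 23.5 to 25.4 CPM in treated libraries. Of the 9 Ewing sarcoma markers 6 were lower and none higher in A673 at 20 days, against 19.9% and 19.7% of all genes. Their median was -0.71, with sums of 2220 to 2450 CPM against 3470 to 3670 CPM in vehicle. The part of these shifts, and of the library that stood apart, in the LIMS2 and PARVA values was not tested beyond leaving that library out. When counts were scaled by library size alone, the median of all tested genes in this comparison moved to -0.115 and the share of higher calls to 37.1%, from 49.8%, and LIMS2, PARVA and TLN2 were still called higher.

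Across the 6 differences between effects, the number of these genes called was 0 for 20 against 3 days in CHLA10 (6.32% of all genes) and 2 for the same contrast in A673 (7.26%). It was 1 for A673 against CHLA10 at 3 days (10.5%), 3 for TC32 against CHLA10 (13.8%), 3 for TC32 against A673 (24.2%) and 4 for A673 against CHLA10 at 20 days (21.9%). In the CHLA10 contrast with no call, TNS1 alone had an unadjusted p under 0.05 (difference 0.67 ± 0.29), and DESeq2 and limma-voom also called none.

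The lines also differed without the drug, though the counts of linker genes called lie near the shares over all genes. Under DMSO at 3 days 5 of the 10 differed between A673 and CHLA10 (61.2% of all genes), 6 between TC32 and CHLA10 (61.1%) and 8 between TC32 and A673 (66.6%). The 6 and the 8 include ILK, which these counts do not measure and whose calls were lost in 4 and 3 of 6 fits that left out 1 library. Without ILK they are 5 and 7 of 9. The TC32 and CHLA10 count, ILK included, was 4 to 5 in each such fit. PARVB was higher in TC32 by 4.99 ± 0.39 against CHLA10 (adjusted p = 1.39e-11) and by 7.02 ± 0.45 against A673 (2.06e-13), and CHLA10 exceeded A673, which was lower by -2.03 ± 0.50. LIMS2 was lowest in A673, by -1.99 ± 0.53 against CHLA10 (adjusted p = 0.0023), and TC32 exceeded A673 by 3.10 ± 0.54 (2.25e-05). TC32 and CHLA10 did not differ by the threshold for LIMS2 (1.11 ± 0.49, adjusted p = 0.053). TNS3 was lower in A673 by -3.34 ± 0.41 against CHLA10 (adjusted p = 8.01e-08), while TC32 and CHLA10 differed by -0.06 ± 0.36.

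TNS1 ran the other way, with A673 above TC32 and TC32 above CHLA10: A673 exceeded CHLA10 by 1.66 ± 0.20 (adjusted p = 8.8e-08) and TC32 exceeded CHLA10 by 0.70 ± 0.20 (0.00383). TLN1 and LIMS1 were lowest in TC32, by -0.60 ± 0.10 and -0.58 ± 0.11 against CHLA10 (adjusted p = 1.68e-05 and 6.3e-05). For TLN1 the difference from A673 (-0.36 ± 0.10) was not called without A673 vehicle replicate 3 (-0.21, adjusted p = 0.0639). Per kilobase of exon, the vehicle order at 3 days began with TLN1 and LIMS1 in each line, at 42.3 ± 0.606 and 9.37 ± 0.23 CPM per kilobase in CHLA10, 35.9 ± 6.01 and 10.8 ± 0.774 in A673, and 28.0 ± 2.26 and 6.29 ± 0.475 in TC32. PARVA followed in CHLA10 at 6.29 ± 0.268 and in TC32 at 5.39 ± 0.299 CPM per kilobase, and TNS1 in A673 at 7.45 ± 1.93. TNS2 was at much the same level in the lines, at 3.20 ± 0.127, 3.0 ± 1.02 and 3.29 ± 0.0725 CPM per kilobase in CHLA10, A673 and TC32.

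Between 20 and 3 days of vehicle none of the 10 was called in CHLA10 (15.1% of all genes) or in A673 (6.10%). At an unadjusted p under 0.05 there were 2 in CHLA10, TNS3 (0.78 ± 0.36) and TLN2 (0.44 ± 0.16), and 2 in A673, TNS2 (-0.51 ± 0.21) and TLN1 (0.23 ± 0.10). DESeq2 and limma-voom each called 1 in CHLA10 and none in A673. Leaving out A673 vehicle replicate 3 of 3 days gave 4 calls in A673, so the absence of calls there depends on that library. Its TNS1, TLN1 and TNS2 levels lay near those of the 20-day vehicle group.

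Genes that work beside these linkers were read from 2 lists. Of 12 kindlins, KANK proteins, RSU1 and further paralogs, 9 were tested. In each of CHLA10 and A673 at 3 days 5 were lower, against 15.7% and 18.4% of all genes. None was higher there, against 14.0% and 15.3%. TC32 had 4 lower and 1 higher (22.8% and 22.3% of all genes). At 20 days CHLA10 had 5 lower and 1 higher (17.2% and 16.5%), and A673 5 lower and 3 higher (19.9% and 19.7%). The list medians were -1.47, -1.48, -0.72, -1.80 and -1.33 in that order, against -0.02 to 0 over all genes, and setting genes with 0 treated counts to their bound left these medians as they were. FERMT3, the kindlin of blood cells, fell in all 5 comparisons by 1.42 ± 0.32 to 2.26 ± 0.29 on the log2 scale, and KANK3, a talin-binding protein of the KANK family, by 1.95 ± 0.33 to 3.32 ± 0.40.

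TNS4, a tensin without the actin-binding part, was called lower in 4 comparisons from few counts. Its 3 treated libraries together held 0 counts in CHLA10 at 3 days and in A673 at 20 days. With a floor of 3 counts over the treated group, TNS4 was at least 5.87-fold and at least 3.82-fold lower there. These bounds allow for counting error in the treated libraries only and take the vehicle sums of 14 and 15 counts as exact. In A673 at 20 days FERMT2, the broadly expressed kindlin that acts with talin, was higher by 1.16 ± 0.27 (adjusted p = 0.00163), as was RSU1, the PINCH-binding protein, by 0.72 ± 0.14 (0.000195). Neither was called in the 4 other comparisons.

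Of 26 further adhesion adaptors 25 were tested. At 3 days 1 was higher and 7 lower in CHLA10, where 14.0% and 15.7% of all tested genes were. In A673 4 were higher and 5 lower (15.3% and 18.4% of all genes), and in TC32 2 were higher and 7 lower (22.3% and 22.8%). At 20 days 3 were higher and 5 lower in CHLA10 (16.5% and 17.2%), and 10 were higher and 4 lower in A673 (19.7% and 19.9%). The counts in A673 at 3 days and in CHLA10 at 20 days lie near the shares over all genes. So do the counts of lower genes in TC32 and in A673 at 20 days. The median log2 change of these adaptors was 0.38 in A673 at 20 days and between -0.32 and 0.04 in the remaining comparisons. VCL, which encodes the talin-binding vinculin, was higher in A673 by 0.54 ± 0.17 at 3 days (adjusted p = 0.0153) and 1.14 ± 0.17 at 20 days (5.76e-06). FHL2, a LIM-domain protein, was lower in all 5, by -1.02 ± 0.22 to -2.58 ± 0.25, and SORBS3, which encodes the vinculin-binding vinexin, in 4.

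Over the 10 group means of log2 CPM, the genes whose pattern was most like that of TLN2 were FAM220A, SLC22A17 and BCL2L11, with Pearson correlations of 0.981, 0.98 and 0.979. For LIMS2 they were MYO1C (0.939), RIN2 (0.928) and CABLES1 (0.9), and for PARVA FLII (0.925), ADM (0.92) and ADAM19 (0.913). For TNS1 they were SINHCAF, MRPS35 and UNCX (0.986, 0.968 and 0.968), for TNS2 TRIOBP, TGFB3 and POLL (0.956, 0.946 and 0.94), and for TNS3 SUCLG2, TAFA5 and ZFAND2A (0.977, 0.97 and 0.97). Among the linkers themselves the closest pairs were TNS2 with TNS3 (0.89) and LIMS2 with PARVA (0.71). These are the highest of 9706 genes compared over only 10 points, which share lines and libraries, and are a description.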

How the data were processed

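Poly(A) RNA was sequenced as 150-base read pairs, per the labels' protocols. The submitters' processing notes name FastQC, Trim Galore, STAR, DESeq2 and GRCh38 for the authors' steps, with no version. How reads were assigned to genes, on which strand and with which annotation, was not given in the sources used here. Values as the authors deposited them are raw whole-number counts per Ensembl gene; 33113 of 33538 IDs were paired with a symbol. Between replicates the lowest chi-square per gene was 2.166, so no library appeared to be deposited more than once.

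With edgeR 4.0.16 in R 4.3.3, low genes were removed by filterByExpr, libraries scaled by TMM, and counts fitted with a robust quasi-likelihood model of the 10 group means, over all 30 libraries and 16 contrasts. Standard errors are the absolute log2 change over the square root of F. Levels per kilobase used GENCODE 29 exons. Promoters, 300 bases each, came from RefSeq and covered 9 of the 10 genes. Figures used matplotlib 3.10.9.

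The 10 genes and the lists were chosen with earlier results of these data known. Named were all 10, the 3 most alike genes of each gene called in at least 4 treatment comparisons, and 3 genes from each list, those of largest absolute mean change that were called in at least 3 comparisons (1 of them is not reported here); FERMT2, RSU1, VCL, PDGFRB and DES were chosen after their values were seen. By the correlation of deviations from group means, in no comparison were all 3 treated libraries most like the vehicle library of the same number. In CHLA10 at 20 days these correlations were 0.20, 0.15 and 0.36, with replicates 1 and 3 most like their own number. The replicate block changed no call there. In TC32 they were 0.1, 0.07 and 0.03, with replicates 1 and 2 most like their own number. Alternatives were RLE, upper-quartile or no scaling factors, other filters, limma-voom 3.58.1, DESeq2 1.42.0, a replicate block, fewer groups, and libraries left out. The fit was tested on simulated data.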

Additional observations from a re-analysis of the deposited data

Results flagged for a closer look

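In 13 cases, over 10 genes and 6 contrasts, the effect of BMS-986158 on a linker gene differed between times or lines by a test of the difference itself (edgeR's quasi-likelihood test, log2 difference ± SE, adjusted p over all genes tested). Between 6.32% and 24.2% of all tested genes were called in each of these contrasts. The 1 call for A673 against CHLA10 at 3 days and the 3 for TC32 against A673 lie near those contrasts' shares of 10.5% and 24.2%. In A673 the effect at 20 days exceeded that at 3 days for LIMS2 by 6.22 ± 0.85 (0.000148) and for PARVA by 1.42 ± 0.25 (0.000857). At 20 days A673 exceeded CHLA10 for LIMS2 by 5.68 ± 0.75 (8.44e-06), PARVA by 2.36 ± 0.25 (1.93e-07), PARVB by 2.28 ± 0.76 (0.0319) and LIMS1 by 0.47 ± 0.16 (0.0314). At 3 days the TNS1 effect differed between lines, with A673 above CHLA10 by 1.18 ± 0.28 (0.0085), TC32 above CHLA10 by 2.07 ± 0.29 (6.45e-05) and TC32 above A673 by 0.89 ± 0.28 (0.0198). TLN1 in TC32 exceeded CHLA10 by 0.68 ± 0.15 (0.00318) and A673 by 0.71 ± 0.15 (0.000955). LIMS1 in TC32 exceeded CHLA10 by 0.48 ± 0.16 (0.0409), and the PARVB effect in TC32 lay below that in A673 by -2.97 ± 0.67 (0.00211). With 1 library left out at a time, 5 of these calls were lost in some fits: LIMS1 between TC32 and CHLA10 in 9 of 12, LIMS1 and PARVB between A673 and CHLA10 at 20 days in 8 and 7 of 12, TNS1 between TC32 and A673 in 4 of 12, and PARVB between TC32 and A673 in 1 of 12. Line and culture medium cannot be told apart in the comparisons with CHLA10.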

How the results depend on the processing

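Over 898 values of single genes under 11 other settings, 863 kept their direction and side of the threshold, 17 lost and 12 gained a call, and 6 changed sign, none of them called. TLN2 in the 5 treatment comparisons, and LIMS2 except by limma-voom in A673 at 3 days, kept their calls in every setting and with each library left out. Without the 4 libraries that stood apart, LIMS1 and PARVB in A673 at 3 days became 0.05 and 0.14, and TLN1 in CHLA10 at 20 days 0.01. For A673 at 20 days, library size alone gave -0.05 for TLN1 and -0.08 for LIMS1, and upper-quartile factors -0.03 for LIMS1. With 1 library left out, sign changed within -0.51 to 0.15 for ILK in CHLA10 at 3 days, -0.09 to 0.01 for LIMS1 and -0.79 to 0.23 for PARVB in A673 at 3 days, and -0.01 to 0.15 for TLN1 and -0.03 to 0.19 for LIMS1 in A673 at 20 days. The cause was not tested.

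The number of linker genes called moved by over 1.5 times only in differences between effects and in vehicle over time. For 20 against 3 days in A673 it went from 2 to 4 without the 4 libraries. For A673 against CHLA10 at 3 days it went from 1 to 3 without them, and to 2 with upper-quartile factors, library size alone, DESeq2, only the groups compared, or the replicate block. For A673 against CHLA10 at 20 days it went from 4 to 2 with only the groups compared. In CHLA10 vehicle over time it went from 0 to 1 with upper-quartile factors, without the 4 libraries, with limma-voom and with DESeq2, and to 4 with only the groups compared. In A673 vehicle over time it went from 0 to 4 without the 4 libraries. With each library left out these counts ran from 2 to 4 (A673 times; 4 without treated replicate 3 of 20 days), 1 to 1, 2 to 4, 0 to 1 and 0 to 4. The replicate block changed 1 call of a single gene, TLN1 in CHLA10 at 3 days (-0.27, adjusted p 0.0302), besides the further gene it called for A673 against CHLA10 at 3 days.

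Over all genes, the 5 treatment comparisons kept their number of calls within 1.5 times. Without the 4 libraries the calls went from 1057 to 3154 and from 1214 to 4331 for 20 against 3 days in CHLA10 and A673. They went from 1756 to 4691, 2307 to 4689 and 3666 to 5527 for A673 and TC32 against CHLA10 at 3 days and A673 against CHLA10 at 20 days, and in vehicle over time from 2526 to 4975 in CHLA10 and from 1019 to 5756 in A673. With only the groups compared, A673 gave 591 for 20 against 3 days and 0 for vehicle over time, A673 and TC32 against CHLA10 at 3 days 2766 and 4267, and CHLA10 vehicle 4043. DESeq2 gave 1707 for 20 against 3 days in CHLA10 and 1680 for A673 vehicle, and the block 1610 for the former. With 1 library left out the calls ran from 289 to 1978 and from 685 to 2346 for 20 against 3 days in CHLA10 and A673, from 1101 to 2728 and from 1292 to 3146 for A673 and TC32 against CHLA10 at 3 days, and in vehicle over time from 1214 to 2922 in CHLA10 and from 12 to 3759 in A673, so the shares of all genes given for these contrasts move as much. Low counts limit ILK, PARVB in A673 and CHLA10, and TNS3 in A673. They also limit TNS3 in treated TC32 (5 to 23 counts a library) and LIMS2 in treated A673 at 3 days (1 to 30 counts). The size of the LIMS2 difference between the A673 times is limited with the latter.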

Other observations

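A set of 4 short motifs was searched on both strands in the 24 RefSeq promoter windows of 9 linker genes. PARVA had no entry. A pair of adjacent copies of GGAA, the core of repeats bound by EWS::FLI1, occur in 3.67% of the 35116 windows and in 1 linker window, a TNS1 entry at chr2:217920187-217920486, from -12 to -5 bases of its start. GGAATG, the core bound by TEAD factors, occurs in 14.0% of windows and in 2 TNS1 entries. CACGTG, an E-box bound by MYC and MAX, occurs in 7.26% of windows and in the ILK entry, and the SRF CArG box occurs in 1.29% and in no linker window. The TLN2 and LIMS2 windows held none of the 4. A match is only a match of letters.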
